A study of Mus musculus with 4 samples.

Results

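Beta cells, the insulin-secreting cells of the pancreatic islet, were taken from 2 single-cell RNA libraries of mouse islets, labelled late db/db and normal control, both at an age of 98 days. The cells were chosen by their own hormone message: Ins1 and Ins2 together had to supply no less than 20% of a barcode's UMIs (unique molecular identifiers, each counting 1 captured mRNA molecule), and Gcg, Sst and Ppy each under 5%. Barcodes needed 1000 UMIs and 500 genes or more, with mitochondrial UMIs no higher than 20%. This gave 2396 beta cells in the control and 820 in late db/db, 3216 together out of 13305 barcodes of the 2 libraries and 26760 barcodes of the 4 libraries of the series. The remaining libraries, early db/db (70 days) and late db/db with intervention (98 days), held 1595 and 3357 beta cells by the same rule. What the intervention was is not stated in the labels.

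The db allele disables the long form of the leptin receptor, and db/db mice overeat, become obese and insulin resistant, and on the KsJ background progress to high blood glucose as beta cells fail. The genotype field reads db/db(C57BL/KsJ) for all 4 libraries, the control included, while the growth protocol names male C57BL/6 mice beside the db/db mice. The strain of the control is therefore not settled by the labels, and strain and disease cannot be told apart. Lepr, the leptin receptor gene, had 5 UMIs in control and 9 in late db/db beta cells, and a count of transcript ends checks nothing about the allele. The labels state that db/db mice were kept until blood glucose was high. How many mice went into each library is not stated in the labels. Each group is 1 library, so no difference could be set against the spread between replicates and none was tested. Every interval below covers counting error only. The name of the matrix deposited for early db/db reads as a second control, and its sample label was followed.

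A mature beta cell takes up glucose through the transporter encoded by Slc2a2, phosphorylates and oxidises it, closes ATP-sensitive potassium channels, and lets calcium trigger the release of insulin granules. Transcription factors such as Mafa, Nkx6-1 and Pdx1 keep insulin and glucose-sensing genes active. Under long-lasting high glucose, beta cells of diabetic mice are known to lose such genes and to express others, Aldh1a3 among them, a state called dedifferentiation.

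The rule rests on insulin message, so hormone shares are a description only. Ins1 and Ins2 together made up 64.3% of the UMIs of control beta cells and 43.5% in late db/db. The median share per cell of Ins1, the insulin gene found in rodents beside Ins2, was 17.5% in the control and 2.6% in late db/db, where the central 80% of cells spanned 0.402% to 9.92%. For Ins2 the median shares were 46.3% and 39.3%, so the ratio of summed Ins1 to Ins2 UMIs was 0.385 in the control and 0.115 in late db/db. Reads of these near-identical genes can be split in counting. Iapp, which encodes amylin, was 3.93% of UMIs in the control and 11.1% in late db/db. In UMIs rather than shares, a median control cell held 8291 for Ins1, 22800 for Ins2 and 1864 for Iapp, and a median late db/db cell 1946, 32890 and 9096. Thus Ins1 was lower, and Ins2 and Iapp higher, when counted per cell.

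Some cells lay close to the insulin cutoff. Just outside it, with 15% to 20% of UMIs from insulin, were 17 control and 42 late db/db cells, and just inside, from 20% to 25%, were 8 and 54. The 54 late db/db cells just inside had an Iapp share of 17.0% and Aldh1a3 at 343 CPM (a scale defined below), and the 42 just outside had 18.9% and 225 CPM.

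Late db/db beta cells held more UMIs. The median was 49690 UMIs in the control and 88070.5 in late db/db, 1.77 times as many. Leaving out mitochondrial message and the 7 islet hormone genes (Gcg, Iapp, Ins1, Ins2, Ppy, Pyy and Sst), the medians were 14089.5 and 36369.5, a ratio of 2.58. The same ratio was 1.41 in alpha cells (1030 control and 112 late db/db cells), 1.03 in endothelial cells (201 and 131) and 0.811 in macrophages (73 and 139). Fewer kinds of message were seen at equal depth, with a median of 1775 genes per 3000 such UMIs in control beta cells and 1549 in late db/db. The medians were 1481 and 1436 in alpha cells, and 1583 and 1571 in endothelial cells. More RNA per cell and a difference in capture cannot be told apart. The 2 libraries shared no beta cell barcode.

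**Figure D1:**
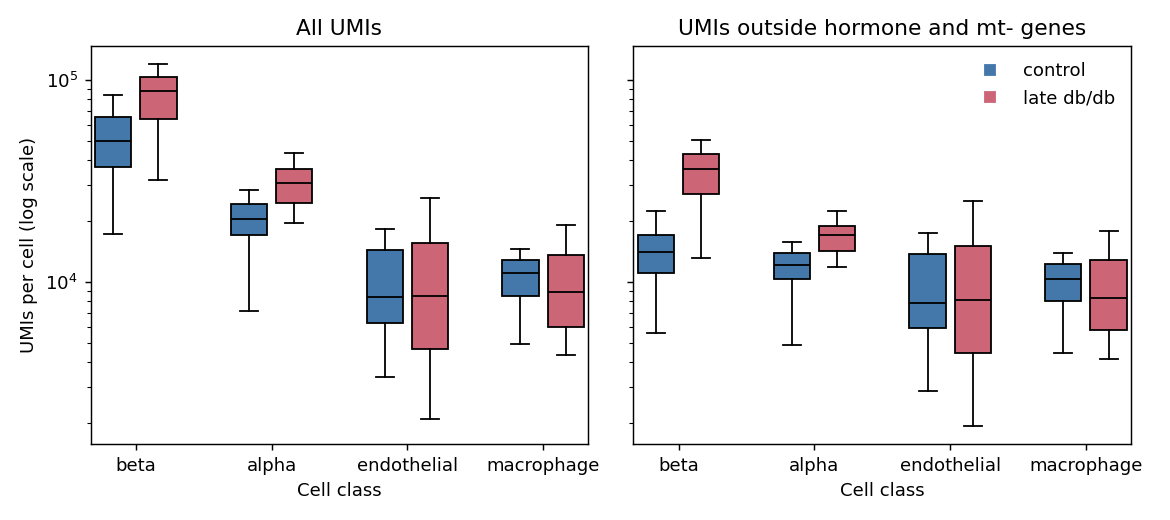
UMIs per cell (log scale) in 4 cell classes of the control (blue) and late db/db (red) libraries, for all UMIs and for UMIs outside hormone and mt- genes. Boxes span the quartiles with the median as a line, and whiskers run from the 10th to the 90th percentile of cells. Beta cells differ most, with medians of 14089.5 and 36369.5 in the right panel, while endothelial medians lie close together.

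Because of this difference the scale matters. Levels below are CPM, the UMIs of a gene per 1000000 UMIs summed over the beta cells of a library without those hormone and mitochondrial genes, and a ratio is late db/db over control on the log2 scale. On UMIs per cell, every log2 ratio is higher by 1.26, since a late db/db cell held 2.4 times as many such UMIs on average. Measured genes are those that reached 50 CPM in either library and 50 UMIs in the pair. There were 4170, of which 184 (4.41%) lay 2-fold or more above control in late db/db and 453 (10.9%) 2-fold or more below (637, or 15.3%, in all), with a median log2 ratio of -0.29. The shares of 4.41% and 10.9% are those to set beside the counts of each list below. Of the 4170 genes, 1287 lay above 0 and 2883 below. On UMIs per cell the same genes gave 2006 higher, 56 lower and a median of 0.97. Over all UMIs, hormones included, every ratio was higher by 0.59, and with edgeR's TMM scaling by 0.29. Over the same 4170 genes, all UMIs gave 540 higher and 135 lower, and TMM 285 higher and 225 lower. Of the 453 lower genes, 220 were above control per cell, and the other 233 were the only measured genes below control on that scale. A list median below 0 in CPM but nearer to 0 than a scale's shift turns above 0 on that scale. A gene under 50 CPM in the control was measured only if higher in late db/db, so the filter set its direction. The reverse held for genes under 50 CPM in late db/db. This applies to every list below. Higher genes so affected include Rab3b, Syt5, Scn3a, Vgf, Derl3, Kdelr3, Arrdc4 and Klf6. Lower ones include Mafa, Slc2a2, Pfkl, Pcx, Gpd2, Acadl, Cox6a2, Trpm5, Kcnj11, Gipr and Igf1r. Sytl4, Glrx, Gstm1, Srebf1, Elovl5, Srebf2, Vldlr, Stmn1 and H2-Q2 are also among the lower ones.

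**Figure D2:**
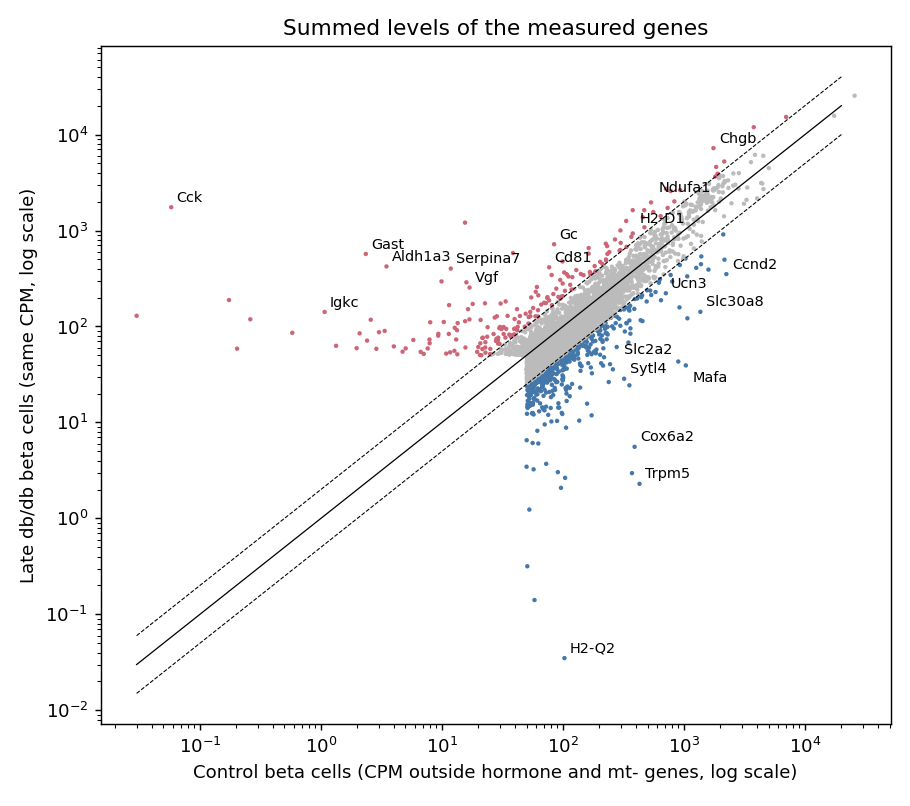
Summed level of each measured gene in control (x axis) and late db/db beta cells (y axis), both in CPM on log scales, with the line of equality and the 2-fold lines dashed. Red marks the 184 genes at least 2-fold higher and blue the 453 at least 2-fold lower. A gene at 0 in the control is drawn at the left edge. Cck lies far above the lines, and Trpm5, Mafa and Slc2a2 far below.

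The transcription factors that define the mature beta cell were lower relative to other genes. Of 15 measured members of that list, 6 were at least 2-fold lower and 1 was higher, with a median of -0.95 on the CPM scale that turned to 0.32 on UMIs per cell. Mafa (chr15:75745490-75748228, GRCm38), an activator of insulin transcription, stood apart from the rest. It had 1036 CPM in the control and 39.3 in late db/db, a log2 ratio of -4.72 (95% interval -4.81 to -4.63). It remained lower per cell, at -3.46. Mlxipl, the glucose-responsive factor ChREBP, was at -1.55, Tshz1 at -1.39 and Nkx6-1, needed for beta cell identity, at -1.35. Per cell the last 3 were between -0.29 and -0.09, and a cell held on average 8.38 Nkx6-1 UMIs in the control and 7.89 in late db/db. Etv1, an ETS family factor, was at 1.05. Pdx1, named here outside the rule for naming genes, was at -0.74, which is above 0 per cell.

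Mafa was low in most late db/db cells when depth was matched. With each cell thinned to 3000 UMIs outside hormone and mitochondrial genes, 85.8% of 2283 control cells had a Mafa UMI (95% Clopper-Pearson interval 84.3% to 87.2%). Among 786 late db/db cells it was 7.76% (5.99% to 9.86%). Before thinning the shares were 94.9% and 28.1%. Endothelial cells, which should lack the gene, had one in 5.56% and 1.74% of cells thinned alike, with the late db/db beta cell share above that of its own library's endothelial cells. At 10000 UMIs, the central 80% of control cells ran from 2 to 20 Mafa UMIs with a median of 10, while 82.6% of 760 late db/db cells had 0.

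A small set of late db/db cells had high Mafa. Of the 1114 Mafa UMIs in late db/db, 50% came from 23 of 820 cells, whereas in the control 556 of 2396 cells held 50%. At 10000 UMIs, 20 late db/db cells (2.63%) had 5 or more Mafa UMIs, a level that 80.3% of control cells reached. These 20 were chosen after their values were seen, and what follows describes them without a test. Their median Ins1 share was 14.5%, against 2.22% in the 628 cells with no Mafa UMI and 17.9% in control cells with 5 or more. Their summed G6pc2 was 1724 CPM, against 304 CPM in the cells without and 1651 in the control cells. Slc30a8 was 611 CPM in them, between 114 and 1418, and Aldh1a3 was 151 CPM, below the 442 CPM of the cells without. Ucn3, at 248 CPM against 219, and Trpm5, at 16.7 CPM against 1.47, were below the 747 and 456 CPM of those control cells. H2-Q2 had 2657 UMIs summed over those control cells, 1550 in number, and 0 over these 20. In the control, 81 cells had no Mafa UMI at this depth. They had 41.9 CPM of Aldh1a3, 3961 of Chgb and 500 of Cd81, against 1.56, 1611 and 40.6 in control cells with 5 or more. Cck was at 0 CPM in both sets, Vgf at 9.38 against 17.8 and Gc 113 against 82.4.

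In glucose entry, the transporter gene had the largest ratio of its list. Of 12 measured genes of glucose entry and phosphorylation 3 were lower by 2-fold or more and none higher, with a median of -0.27 in CPM, near that of all genes, 0.02 with TMM and 0.99 per cell. Slc2a2 (chr3:28697903-28731359), the glucose transporter GLUT2, had 898 CPM in the control and 43.1 in late db/db, a ratio of -4.38 (-4.46 to -4.30) and -3.12 per cell. At 3000 UMIs, 87.9% of control and 10.8% of late db/db cells had a UMI of it, and 5.56% and 0% of endothelial cells. The difference ran through nearly the whole population: at 10000 UMIs 90.8% of late db/db cells lay below the control's 5th percentile of 2 UMIs, and none lay above the control median of 9. Both Mafa and Slc2a2 had a UMI in 1829 of 1930 control cells at this depth and in 56 of 760 late db/db cells. G6pc2, the islet glucose-6-phosphatase, was at -2.03 and -0.76 per cell. Pfkl, liver-type phosphofructokinase, was at -1.17 and 0.09 per cell. Gpi1, glucose-6-phosphate isomerase, was at 0.56 on the CPM scale.

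**Figure D3:**
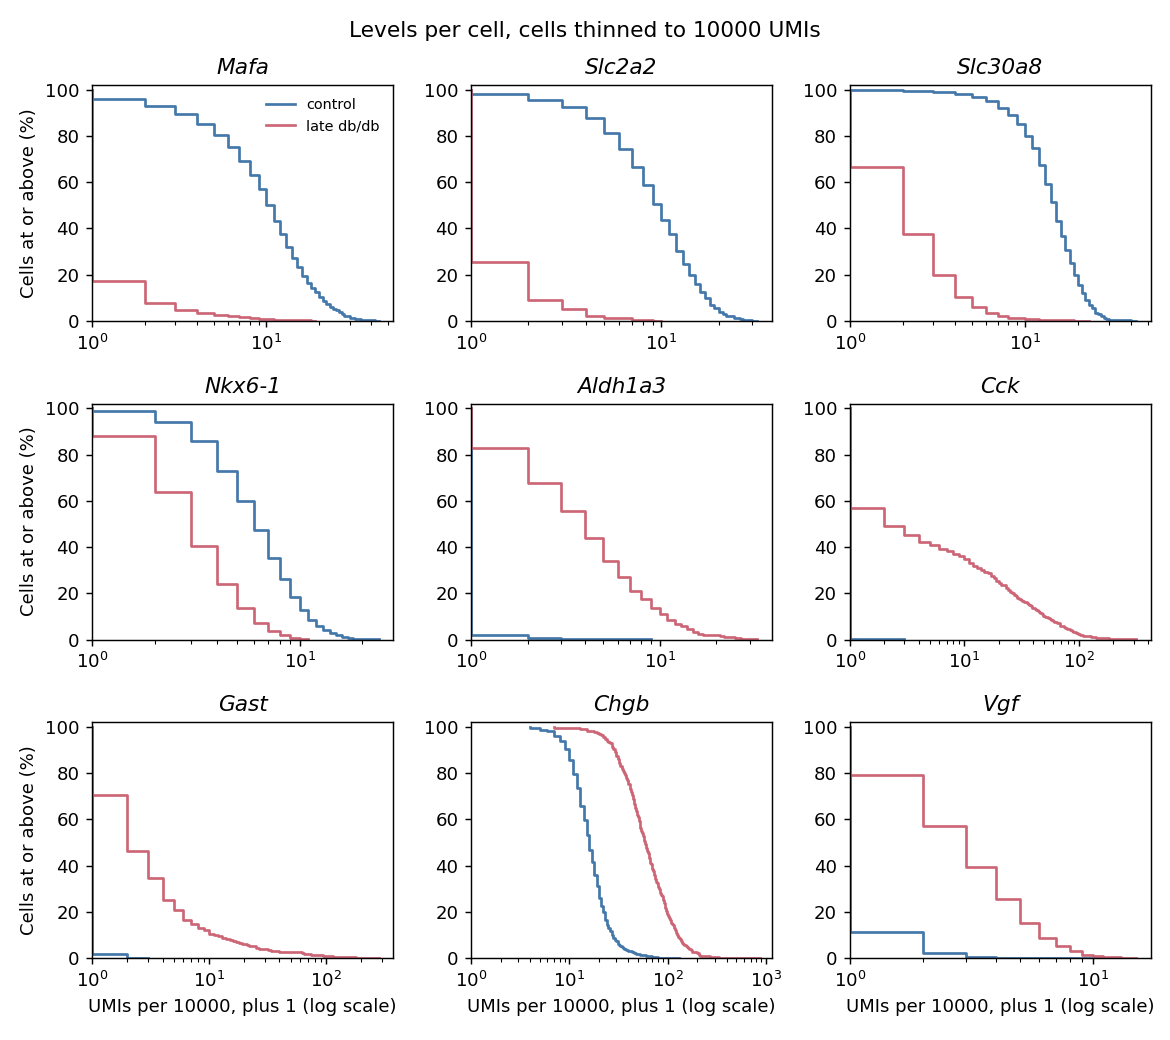
Share of cells (y axis, percent) with at least a given number of UMIs of a gene (x axis, UMIs per 10000 outside hormone and mt- genes, plus 1, log scale) in 1930 control (blue) and 760 late db/db (red) beta cells. Slc2a2 and Slc30a8 curves of late db/db lie to the left over nearly all cells, Mafa was at 0 in 82.6% of late db/db cells, and Cck and Gast have long tails. Chgb curves are displaced with little overlap.

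Of 20 genes of mitochondrial substrate use 3 were lower by that much and none higher, with a median of -0.30 in CPM and 0.97 per cell. Pcx, pyruvate carboxylase, was at -2.68 (91.4 and 14.3 CPM in control and late db/db) and Gpd2, the mitochondrial glycerol phosphate dehydrogenase that carries cytosolic electrons, at -2.42. Both remained lower per cell, at -1.41 and -1.15. Fatty acid oxidation gave 2 of 9 lower and none higher, with Hadh at -1.68 and Acadl at -1.37 and a list median of -0.72 that was 0.54 per cell. Nuclear genes of oxidative phosphorylation were near balance in CPM, 1 of 76 higher and 1 lower with a median of -0.02 (0.27 with TMM, 1.24 per cell). The lower one, Cox6a2, a cytochrome oxidase subunit best known from muscle, had 391 CPM in the control and 5.57 in late db/db, and 50% of its late db/db UMIs came from 5 cells. The higher one, Ndufa1, a complex I subunit, had 535 and 1962 CPM, and 83.3% of late db/db cells exceeded the control's 95th percentile.

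Ion channel genes numbered 17 measured, with 4 at least 2-fold lower, 1 higher and a median of -0.29 in CPM and 0.97 per cell. Trpm5, a cation channel opened by calcium and known in taste cells and beta cells, had 430 CPM in the control and 2.29 in late db/db (65 UMIs), a ratio of -7.55 (-7.92 to -7.20). At 3000 UMIs 67.1% of control and 0.509% of late db/db cells had a UMI, while endothelial cells had 0.556% and 0%. Atp2a2, the SERCA2 calcium pump, was at -1.63 in CPM and -0.37 per cell. Kcnj11, the pore of the ATP-sensitive potassium channel, was at -1.21 in CPM and 0.06 per cell, and Scn3a, a sodium channel, at 1.39. Of 8 measured receptors 4 were at least 2-fold lower and none higher, with a median of -0.95 that turned to 0.32 per cell. Gipr, the receptor for the incretin GIP, was at -2.24, Igf1r at -1.97, the fatty acid receptor Ffar1 at -1.72 and Prlr, the prolactin receptor, at -1.08. Prlr alone of these 4 was above control per cell, at 0.18. Glp1r was below the level filter.

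Secretory granule genes split in CPM. Of 19 measured, 8 were at least 2-fold higher and 2 lower, with a median of 0.11, while on UMIs per cell 12 were higher and 1 lower, with a median of 1.38. Chgb (chr2:132781278-132795079), chromogranin B, a main granule matrix protein, had 1753 CPM in the control and 7213 in late db/db, a ratio of 2.04 (2.03 to 2.05). At 10000 UMIs the control median was 15 UMIs and the late db/db median 58, and 82% of late db/db cells exceeded the control's 95th percentile of 33. Vgf, a precursor of neuroendocrine peptides, had 16.9 and 254 CPM, and was seen in 4.38% of control and 45.8% of late db/db cells at 3000 UMIs, with 0 endothelial cells in either library. Nucb2, which encodes nesfatin, was at 1.796 and Pam, the peptide-amidating enzyme, at 1.48. Slc30a8 (chr15:52295553-52335798), which loads granules with zinc, was lower, with 1367 and 142 CPM, a ratio of -3.27 (-3.31 to -3.22) and -2.001 per cell. At 10000 UMIs 96.6% of late db/db cells lay below the control's 5th percentile. Pcsk1, the proinsulin-cleaving convertase, was at -1.03 in CPM and 0.24 per cell. Zinc handling gave 3 of 6 lower, with a list median of -0.92 in CPM and 0.34 per cell: Slc30a8 and the zinc-binding metallothioneins Mt1 (-1.38) and Mt2 (-1.46). These 2 were higher in late db/db endothelial cells, at 2.90 and 3.11.

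Among 22 measured exocytosis genes 6 were lower by 2-fold or more and 2 were higher, with a median of -0.60 in CPM and 0.67 per cell. Sytl4, granuphilin, which docks insulin granules, was at -3.49 and -2.22 per cell, with 58.7% of control and 7.25% of late db/db cells at 3000 UMIs. Cadps, a priming factor, was at -1.65, Pclo, an active zone scaffold, at -1.35 and Cplx2, complexin, at -1.16. The higher members were Rab3b (1.46), a granule GTPase, and Syt5 (1.12), a synaptotagmin. Both were under 50 CPM in the control (49.2 and 41.95), and Sytl4 was in late db/db (28.5), so the filter set their direction.

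Some peptide hormone genes that were scarce in control beta cells were abundant in late db/db. Of 28 listed only 5 were measured, 3 at least 2-fold higher and 1 lower. The higher members reached 50 CPM in late db/db only, so the filter set their direction. Cck, cholecystokinin, had 2 UMIs in all 2396 control beta cells and 49557 in the 820 late db/db cells (1748 CPM), a ratio of 14.88 (13.03 to 17.93). Gast, gastrin, a close relative that shares its active end with cholecystokinin, had 2.35 and 570 CPM, a ratio of 7.92. Cartpt, which encodes the CART peptide, had 2.41 and 71.3 CPM. Ucn3, urocortin 3, a marker of mature mouse beta cells that drives somatostatin release, was lower, at 708 and 222 CPM, -1.67 in CPM and -0.41 per cell. The starts of Cck, Gast and Slc2a2 are shown because these genes stood far above or far below the control. The letters are the 250 bases before the annotated gene start, read 5′ to 3′ along the gene's strand, from RefSeq on GRCm38.p6, and capitals mark the motifs searched on both strands, namely the E-box palindrome CACGTG, the core of the cAMP response element TGACG, and the core of the TATA box TATAAA.
Cck, chr9:121495695-121495944, minus strand: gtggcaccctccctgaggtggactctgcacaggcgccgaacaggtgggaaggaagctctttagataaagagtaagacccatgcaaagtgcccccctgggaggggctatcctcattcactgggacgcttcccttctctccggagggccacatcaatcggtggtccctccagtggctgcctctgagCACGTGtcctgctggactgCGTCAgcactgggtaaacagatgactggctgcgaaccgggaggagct
Gast, chr11:100334157-100334406, plus strand: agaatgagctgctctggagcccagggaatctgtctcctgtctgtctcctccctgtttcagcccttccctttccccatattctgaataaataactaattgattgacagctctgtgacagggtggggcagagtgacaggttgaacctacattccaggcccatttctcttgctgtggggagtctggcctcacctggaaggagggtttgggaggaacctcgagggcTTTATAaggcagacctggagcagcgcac
Slc2a2, chr3:28697653-28697902, plus strand: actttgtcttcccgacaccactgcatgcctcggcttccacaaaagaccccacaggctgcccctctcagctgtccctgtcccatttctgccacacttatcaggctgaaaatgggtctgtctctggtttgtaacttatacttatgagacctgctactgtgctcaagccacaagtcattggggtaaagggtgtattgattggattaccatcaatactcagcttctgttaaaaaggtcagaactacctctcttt

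The window before Cck holds CACGTG, the palindrome read by bHLH factors, and CGTCA, which is TGACG on the other strand. Gast holds TTTATA, which is TATAAA on the other strand, and Slc2a2 holds none of the 3. Of 32851 windows of this length in the table, 6.02% hold the E-box palindrome on either strand, 17.8% the cAMP response core and 12.4% the TATA core. These matches describe letters only.

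Cck and Gast were uneven among late db/db cells. At 3000 UMIs 45.7% of late db/db cells had a Cck UMI (42.2% to 49.2%) and 40.2% a Gast UMI (36.8% to 43.7%), against 0% and 0.526% in the control and 1.74% for each in late db/db endothelial cells. The 90th percentile of late db/db cells at 10000 UMIs was 49.1 Cck UMIs and 11 Gast UMIs, while the median was 1 for each. Of all late db/db UMIs, 50% of Cck came from 58 cells and 50% of Gast from 30, and a single cell held 1176 Cck UMIs. At 10000 UMIs, 320 of 760 cells had both, 112 Cck only, 215 Gast only and 113 neither.

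Some dedifferentiation markers were also higher. Of 14 listed 5 were measured, 4 at least 2-fold higher and 1 lower. Aldh1a3 and Cd24a reached 50 CPM in late db/db only and Nnat in the control only, so the filter set their direction. Aldh1a3 (chr7:66390890-66427517), a retinaldehyde dehydrogenase, had 3.48 CPM in the control and 422 in late db/db, a ratio of 6.92 (6.66 to 7.19). At 3000 UMIs 0.657% of control and 55.1% of late db/db beta cells had a UMI, with 0% and 2.61% of endothelial cells. It was spread more widely than Cck: 50% of its late db/db UMIs came from 134 cells, and at 10000 UMIs 82.6% of late db/db cells had at least 1. At that depth 524 of 760 late db/db cells had Aldh1a3 and no Mafa, 104 had both, 28 had Mafa only and 104 neither. The other higher markers were Gc, the vitamin D-binding protein known from alpha cells (84.5 and 719 CPM), Cd24a (18.0 and 172) and Cd81, a tetraspanin of immature beta cells (76.9 and 414). Gc was broad, in 83% of late db/db cells at 3000 UMIs against 19.5% in the control. For Cd81, 28.2% of late db/db cells had no UMI at 10000 UMIs. Nnat, which supports signal peptide cleavage, was the lower member, at -5.53. Neurog3, Sox9 and Fev, also listed, were below the level filter.

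Genes of the endoplasmic reticulum (ER), where proinsulin is folded, were mostly higher. Of 31 measured chaperone and unfolded protein response genes 6 were at least 2-fold higher, 1 was lower and 24 lay above 0, with a median of 0.43 against -0.29 for all genes. Over all measured genes 1287 of 4170 lay above 0. Derl3, which helps extract misfolded proteins, was at 2.44, Creld2 at 1.82, the BiP co-chaperone Dnajc3 at 1.27 and Sdf2l1 at 1.196. Creld2 was seen in 34.3% of control and 75.7% of late db/db cells at 3000 UMIs. Ero1lb, the beta cell oxidase that forms disulfide bonds, went the other way, with 2161 and 497 CPM (-2.12, and -0.86 per cell). Xbp1 and Atf6, transducers of the response, were at -0.57 and -0.45 in CPM, and above 0 per cell. Hspa5, which encodes BiP and is named outside the rule, was at 1.01.

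Translocation into the ER gave 2 of 30 higher and none lower, Sec11c, a signal peptidase subunit, at 1.73 and Ssr4, a translocon component, at 1.32, with 25 of 30 above 0. Over all measured genes 4.41% were 2-fold higher. At 10000 UMIs 84.1% of late db/db cells exceeded the control's 95th percentile of Sec11c. ER to Golgi transport gave 2 of 27 higher and none lower, Kdelr3, a retrieval receptor, at 2.78 and the cargo receptor Tmed3 at 1.504. All 76 measured cytosolic ribosomal protein genes were above 0, with none at 2-fold in CPM (all 76 per cell) and a median of 0.51. In the integrated stress response list, of 13 members none was 2-fold higher and 2 were lower, Atf5 at -1.62 and Vldlr at -1.004, with a median of -0.41 in CPM and 0.85 per cell. Ddit3, which encodes CHOP, was at 0.21. Of 16 tRNA synthetase genes 1, Gars, was lower (-1.44).

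**Figure D4:**
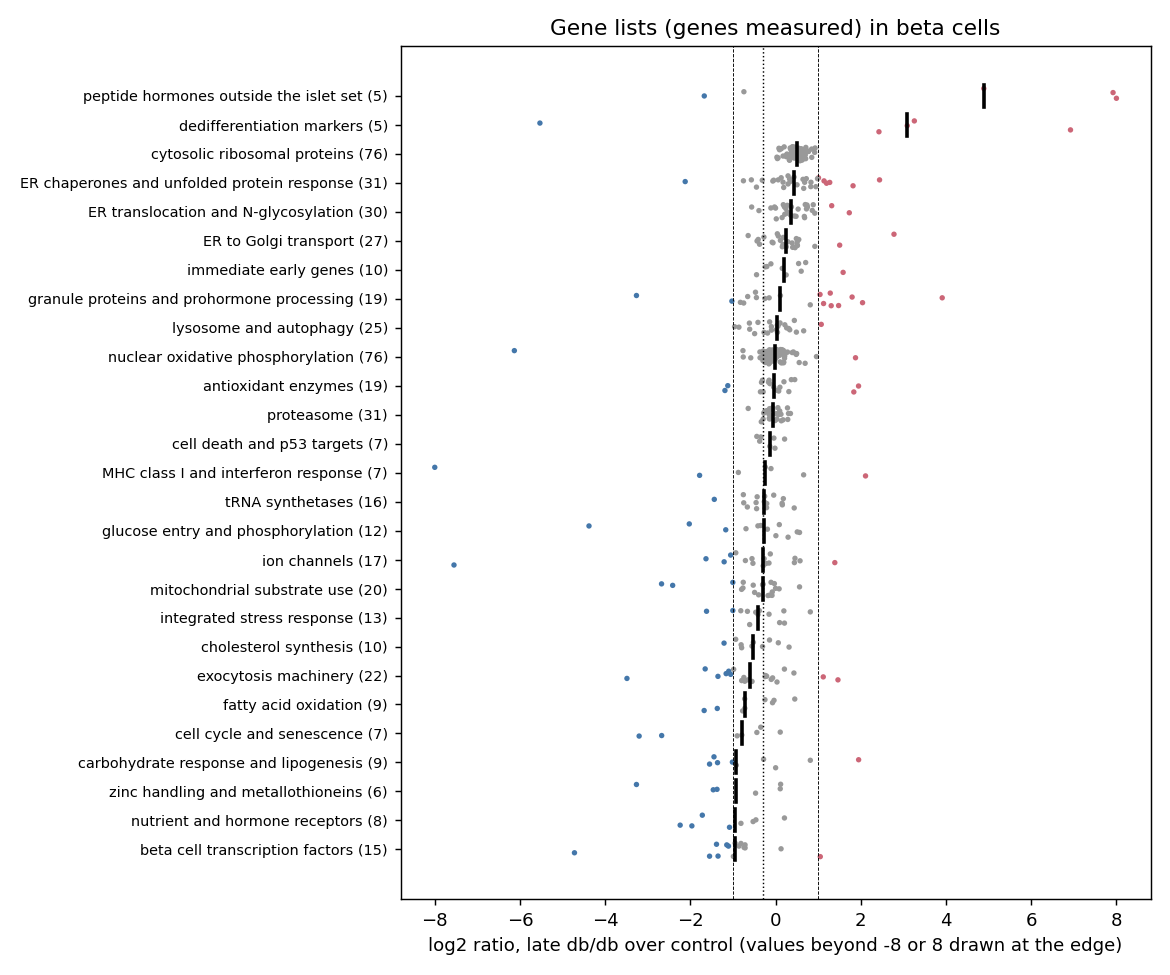
Log2 ratio of late db/db over control (x axis, CPM scale) for each measured gene of the lists with 5 or more measured genes (y axis, number measured in brackets). Black bars are list medians, the dotted line is the median of all measured genes (-0.29) and dashed lines mark 2-fold. ER and ribosomal protein lists lie to the right and transcription factor, receptor and zinc lists to the left. On UMIs per cell all points move right by 1.26, which places every list median above 0.

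Antioxidant genes showed 2 of 19 higher and 2 lower. The ER peroxiredoxin Prdx4 was at 1.95 and the secreted peroxidase Gpx3 at 1.84, with Glrx at -1.12 and Gstm1 at -1.19 in CPM, both slightly above 0 per cell. Of 9 genes of carbohydrate response and lipogenesis 4 were lower in CPM (list median -0.92, and 0.34 per cell), Mlxipl, Srebf1 (-1.45), Elovl5 (-1.36) and Acly (-1.01, and 0.25 per cell). Its higher member was Arrdc4 (1.95), and its relative Txnip, which is induced by glucose, was at 0.82. Cholesterol synthesis, with a median of -0.54 in CPM and 0.73 per cell, gave 1 of 10 lower, near the 10.9% of all measured genes. This was Srebf2, at -1.21 in CPM and 0.05 per cell. Of 7 measured cell cycle genes (median -0.79 in CPM, 0.47 per cell) 2 were lower, Ccnd2, the main D-type cyclin of beta cells (2241 and 351 CPM, -2.67), and Stmn1 (-3.20). In the control, 50% of Stmn1 UMIs came from 10 of 2396 cells, against 706 cells for Ccnd2. At 10000 UMIs 85.1% of late db/db cells lay below the control's 5th percentile of Ccnd2. Mki67 and Top2a were below the level filter. Proteasome (31 measured) and cell death genes (7) had none at 2-fold in CPM, while on UMIs per cell 26 and 4 of them were 2-fold higher. Lysosome and autophagy had 1 of 25 higher, the protease Ctsl (1.07), and immediate early genes 1 of 10 higher, Klf6 (1.58).

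Of 7 measured genes of antigen presentation and interferon response 1 was higher and 2 were lower. H2-D1 had 377 and 1629 CPM, and H2-K1 646 and 188. H2-Q2 had 3547 UMIs in control beta cells and 1 in late db/db, a ratio of -11.51 (-16.81 to -9.03), and 0.0654 CPM in early db/db and 0.102 CPM in the intervention library. These genes are near-identical copies that differ between mouse strains, so counts can be split or lost and the values are uncertain. In alpha cells H2-D1 was at 1.32 and H2-K1 at -1.43, and in endothelial cells at 0.94 and 0.72.

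Outside the lists, the lowest genes with at least 100 CPM in the control included Fam151a (372 and 2.96 CPM), Robo2 (173 and 11.9), a guidance receptor that organises islets, and Gad1 (136 and 10.4), which makes GABA. Ppp1r1a, a protein phosphatase inhibitor, had 1068 and 122 CPM. The highest included Serpina7, the thyroxine-binding globulin gene (11.8 and 401 CPM), found in 51.5% of late db/db cells at 3000 UMIs, Spp1, osteopontin (15.9 and 289), and Basp1 (11.5 and 167). For Spp1, which is also among the duct markers used below, 50% of late db/db UMIs came from 36 of 820 cells. Some of the highest were as high in other cell classes. The ratio of 6330403K07Rik was 6.28 in beta and 10.29 in alpha cells, that of Pianp 8.83 in beta, 7.01 in alpha and 5.77 in endothelial cells, and that of Gm8797 3.91, 3.94 and 3.86. Gm10260 was at 10.08 in beta and 10.78 in alpha cells. Ccl21a, a lymph node chemokine, had 0 UMIs in the control and 3661 in late db/db, at least 1484-fold higher against a floor of 3 UMIs in the control sum. Yet 50% of them came from 2 cells, and at 3000 UMIs 32.2% of late db/db endothelial cells had a UMI against 8.27% of beta cells (57.2% of beta cells before thinning).

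Alpha cells of the same libraries had fewer genes past 2-fold. Of 3374 genes measured in them 58 (1.72%) were higher and 32 (0.948%) lower. Of the 453 genes lower in beta cells 242 were also measured in alpha cells, where 11 were also lower by 2-fold or more and 1 was higher, with a median of -0.26. Of the 184 higher genes 116 were measured there, 28 of them also 2-fold higher and 4 lower. Chgb was at 0.01 in alpha cells, Creld2 at -0.12, Vgf at -0.32 and Slc30a8 at -0.26. Gipr (-2.04) and Pcsk1 (-2.03) were also lower in alpha cells, and Slc2a2 was at -3.39. The insulin share of alpha cells, a measure of beta cell RNA among them, was 1.11% and 0.408% in control and late db/db, and its part in those values was not tested. Endothelial cells gave 422 of 4014 higher (10.5%) and 358 lower (8.92%). Among the 175 beta-lower genes measured there 14 were lower and 18 higher, and among the 74 beta-higher genes 25 were higher and 10 lower. Macrophages, from 73 and 139 cells, gave 669 of 3367 higher (19.9%) and 242 lower (7.19%). There, 51 of the 92 beta-higher genes measured were also 2-fold higher and 4 lower. For the 130 beta-lower genes measured in macrophages, 14 were lower and 31 higher. Whether beta and alpha cells differ in these ratios was not tested, since each ratio comes from 1 library a group.

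Markers of other cells were present among the beta cells and differed between the libraries. Summed over the beta cells, the 11 T and NK cell markers were at 0.551 CPM in the control, with Cd3e, Cd3g, Cd4 and Nkg7 at 0, and at 56.9 in late db/db with none at 0. The 8 B cell markers were at 53.9 and 209 CPM, with Ms4a1 at 0 in the control. Igkc, an antibody chain gene of B cells, had 1.07 and 142 CPM, and was in 29.8% of late db/db beta cells and 24.4% of late db/db endothelial cells at 3000 UMIs. The 5 erythroid markers were at 16.0 and 561 CPM, the 6 fibroblast markers at 1.39 and 26.5 and the 12 acinar markers at 166 and 390. The erythroid difference lay in the sums and was not spread over the cells. The median cell had 0 CPM of these markers in both libraries, and the upper decile was 60.6 CPM in the control and 41.6 in late db/db. The highest late db/db cell held 4796 of 8356 UMIs for the hemoglobin gene Hbb-bs, and 1839 of 3331 for Hba-a1. Alpha cell markers were at 3891 and 12690 CPM, 3 of 7 outside the hormones being higher in late db/db. Endothelial markers were at 82.7 and 20.1 CPM, and delta cell markers at 229 and 51.2. Duct (455 and 819), macrophage (233 and 277), dendritic (1316 and 2480), pericyte (11.5 and 12.3) and Schwann cell markers (29.5 and 20.9) were within 2-fold. Of the 7 dendritic markers, Cd209a, Flt3, Xcr1, Clec9a and Ccr7 were at 0 in the control, so that sum came from Siglech and Cst3 only. In late db/db Cd209a and Siglech were at 0. Gamma cell markers outside the hormones were at 0.232 and 0. The beta cell's own markers outside the hormones were at 6978 and 1440 CPM, with 0 of 6 higher. Without cells that carried over 0.5% of such UMIs in markers of other types, which left out 183 late db/db and 35 control cells, 178 genes were higher and 454 lower, against 184 and 453 with them.

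Mafa and Slc30a8 were lower, and Aldh1a3 higher, in late db/db in each part of the cells cut by depth. When the cells of each library were divided into 3 equal parts by UMIs, Mafa was at 1059, 1020 and 1038 CPM from the lowest to the highest part of the control and at 60.2, 42.5 and 28.8 in late db/db. Slc30a8 was at 205, 144 and 116 CPM in late db/db and at 1279 or more in each part of the control. Aldh1a3 was at 396, 485 and 386 CPM. Cck was higher in the deeper parts of late db/db, at 934, 1374 and 2341 CPM. Among cells with 10000 to 30000 such UMIs, 1862 control and 190 late db/db, 156 genes were higher and 278 lower.

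Early db/db beta cells, from younger mice, had Mafa at 30.7 CPM, Slc2a2 at 46.8, Aldh1a3 at 369 and Cck at 2252. Beta cells of the intervention library had Mafa at 110 CPM, Slc2a2 at 179, Trpm5 at 19.8, Slc30a8 at 409 and G6pc2 at 1067, each between late db/db and control, and Gast at 162 CPM, also between them. Its Chgb (5561), Aldh1a3 (304) and Cck (1199) also lay between control (1753, 3.48 and 0.058 CPM) and late db/db (7213, 422 and 1748). Sec11c, at 3386, and Txnip, at 1497, were above control (777 and 418) and late db/db (2579 and 736). These values are set side by side without a test.

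**Figure D5:**
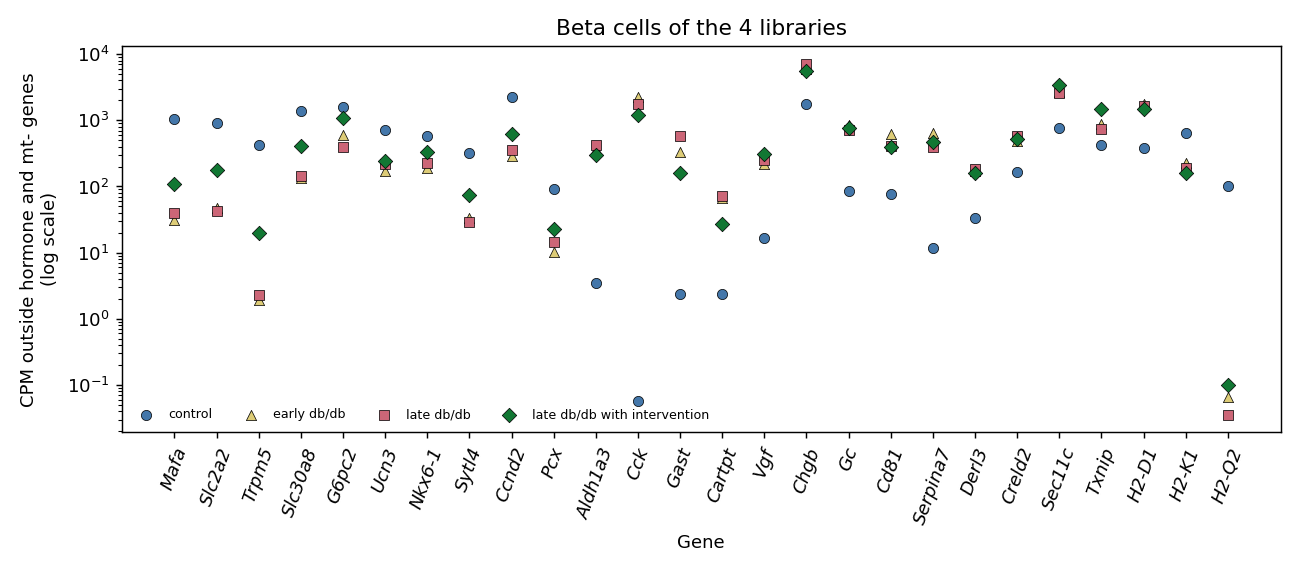
Level of 26 genes (x axis) in the beta cells of the 4 libraries, in CPM outside hormone and mt- genes on a log scale, 1 point per library. Control points (blue circles) stand apart from the 3 db/db libraries for Mafa, Aldh1a3, Cck and H2-Q2, and intervention points (green diamonds) lie between late db/db and control for Mafa, Slc2a2 and Slc30a8.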

How the data were processed

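The deposited matrices hold UMI counts as whole numbers per gene and cell barcode, not normalized, written by Cell Ranger 3.0.0 per the file headers. The submitters' processing notes name mm10, CASAVA 1.8, Cell Ranger and Seurat. No label or header names the gene annotation behind the counts. Positions come from GENCODE M21 (30766 of 30905 identifiers matched).

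Beta cells of the 2 libraries held 124237924 (control) and 67846975 (late db/db) UMIs. UMIs were summed over cells and scaled to CPM. Ratios carry exact conditional binomial 95% intervals, shares Clopper-Pearson 95% intervals. Cells were thinned without replacement to 3000 or 10000 UMIs, which left out 113 control and 34 late db/db cells, or 466 and 60. Alpha, endothelial and macrophage cells were taken by marker thresholds. Doublets stayed in the main values, and an alternative removed the highest Scrublet scores (scanpy 1.11.5) at 0.8% per 1000 cells. TMM factors came from edgeR 4.0.16. The scripts were tested on simulated data.

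Named genes were the 7 hormones, Lepr, up to 4 measured members a direction from each of 28 lists, by log2 ratio, and 12 a direction from no list with at least 100 CPM, by the interval bound nearest 0. Alternatives changed the denominator, depth, cell rule and level filter. Members and lists were chosen with earlier results of these data known.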

Additional observations from a re-analysis of the deposited data

Results flagged for a closer look

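The hemoglobin gene Hba-a1 had a log2 ratio of late db/db to control of 5.51 in beta cells and -4.79 in alpha cells, and Hbb-bs 4.89 and -5.48. The opposite direction in the 2 cell classes drew attention to them, and the difference was not tested. Of the late db/db UMIs of each gene in beta cells, 50% came from 1 cell. At 3000 UMIs the shares of beta cells with a UMI were 0.701% and 0.763% for Hba-a1 and 2.23% and 2.42% for Hbb-bs, in control and late db/db.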

How the results depend on the processing

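The counts of 184 genes higher and 453 lower moved most with the scale. Over the same 4170 genes they were 540 and 135 with all UMIs as denominator, 285 and 225 under TMM, and 2006 and 56 on UMIs per cell, comparisons chosen after seeing the data. The share of higher among called genes was 28.9% as reported, 80.0% over all UMIs, 55.9% with TMM and 97.3% per cell. With the level filter applied anew on each scale, which left 1419 genes for all UMIs and 4021 for TMM, the counts were 342 and 43 (88.8% higher), and 300 and 202 (59.8%). A minimum of 10 CPM gave 391 and 1196, a minimum of 200 CPM gave 77 and 92, and cells with 10000 to 30000 UMIs gave 156 and 278, from 190 late db/db cells. Under the other alternatives (thinning, insulin or mitochondrial cutoffs, deepest cells, Scrublet scores, marker-bearing cells, or, chosen after seeing the data, cells under 20000 UMIs left out) they stayed between 178 and 190 and between 428 and 494. On UMIs per cell the sign turned for Acly (0.25), Atp2a3 (0.21), Cplx2 (0.10), Glrx (0.14), Gstm1 (0.076), Idh2 (0.26), Kcnj11 (0.057), Pcsk1 (0.24), Pfkl (0.094), Prlr (0.18), Srebf2 (0.054) and Vldlr (0.26), since that scale adds 1.26 to every ratio. Hba-a1 turned to -0.59 and Hbb-bs to -0.061 among cells with 10000 to 30000 UMIs, and Hbb-bs to -0.14 without the highest Scrublet scores and -0.19 without marker-bearing cells. The median of the retinoid list turned from 2.36 to -0.77 at a minimum of 10 CPM, which measures more of its genes. Of 99 named genes at 2-fold, 65 kept that call on UMIs per cell, 77 over all UMIs, 87 with TMM and 95 when cells were thinned to 10000 UMIs, and 86 of 98 did in cells with 10000 to 30000 UMIs. No paired analysis was possible because each group is 1 library.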
